A study of Mus musculus with 4 samples.

Results

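The genes described here encode adaptor proteins that bind activated Trk receptors, and the Cbl ubiquitin ligases that act on receptor tyrosine kinases. The 10 genes were chosen by name (*Shc1*, *Shc3*, *Frs2*, *Frs3*, *Sh2b1*, *Grb2*, *Gab1*, *Kidins220*, *Cbl* and *Cblb*), and all 10 were listed in each of the 4 libraries, among 15275 genes listed in all 4 and 17667 listed in at least 1. RNA was sequenced from sympathetic ganglia (SG) at thoracic levels T1–T4 of C57BL/6 mice aged 12 weeks, after 1 day of cold exposure at 5 °C. There was 1 library from TRKC+/- mice, which carry a single working copy of *Ntrk3* (the gene of TRKC, the NT-3 receptor) in every cell, and 1 from AdNTF3-Tg mice, in which the adiponectin promoter drives NT-3 in adipocytes. The other 2 libraries, WT_1 and WT_2, were from WT mice, and each of the 4 was made from the pooled ganglia of several mice. In the study each mutant line had WT controls of its own, but the labels do not tie either WT library to a mutant, so each mutant library was set against both.

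When a neurotrophin binds a Trk receptor, the receptor phosphorylates tyrosines in its own tail. SHC and FRS2 family proteins compete for the same phosphotyrosine near the membrane and recruit GRB2, which brings the Ras activator SOS and the docking protein GAB1, and so opens the Ras-ERK and PI3K-AKT pathways. In sympathetic neurons these pathways serve survival and axon growth. Cbl proteins have both roles: as adaptors they carry signals from the receptor, and as E3 ligases they attach ubiquitin to receptors, which marks them for internalization and degradation.

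The genes come partly in paralog pairs, so the sequences most alike within each pair are shown first, because reads from such stretches are where counts could be assigned to the wrong member. Capitals mark the longest run of identical bases shared by the coding sequences of the pair (longest coding transcript per gene, GENCODE on NCBIM37), with up to 20 bases on each side in lower case.
Cbl: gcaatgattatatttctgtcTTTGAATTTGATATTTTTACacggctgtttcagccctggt
Cblb: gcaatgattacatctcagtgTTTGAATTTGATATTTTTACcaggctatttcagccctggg
Shc1: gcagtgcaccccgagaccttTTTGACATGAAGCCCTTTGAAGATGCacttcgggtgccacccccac
Shc3: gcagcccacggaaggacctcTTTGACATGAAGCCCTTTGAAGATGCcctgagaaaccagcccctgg
Frs2: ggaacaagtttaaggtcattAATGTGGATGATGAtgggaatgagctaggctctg
Frs3: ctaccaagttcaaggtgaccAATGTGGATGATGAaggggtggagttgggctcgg

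The shared run was 20 bases in *Cbl* (chr9:43977116-43977135, minus strand) and *Cblb* (chr16:52131302-52131321, plus strand). It was 26 bases in *Shc1* (chr3:89230983-89231145, plus strand) and *Shc3* (chr13:51538339-51543268, minus strand), where in both genes it spans an exon junction. In *Frs2* (chr10:116515983-116515996, minus strand) and *Frs3* (chr17:47836464-47836477, plus strand) it was 14 bases. Each run is coding sequence and shorter than the reads that the study describes. The expected counts, estimates that need not be whole where reads are divided between genes, were whole in every library for all 10 genes.

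Reads assigned to genes numbered from 8665955 to 8894985 in a library. Markers of sympathetic neurons (*Th*, *Dbh*, *Npy* and 6 more) summed to between 9165 and 9919 FPKM, and none of the 35 markers of 7 cell types was missing from a library. FPKM divides reads by transcript length and library depth, so levels of different genes can be set side by side on it. Skeletal muscle markers summed to 83.5 FPKM in WT_1, 39.5 in the TRKC+/- library, 2.68 in WT_2 and 30.9 in the AdNTF3-Tg library. Adipocyte markers summed to 122, 65.1, 108 and 96.2 FPKM, and glial markers to 741, 705, 556 and 665, in the same order. In pooled tissue, fewer cells of a type and less RNA per cell cannot be told apart. The targeted gene *Ntrk3* had 2.45 FPKM (78 reads) in WT_1 and 2.52 (83 reads) in WT_2, against 2.72 (91 reads) in the library labelled TRKC+/-. Its count was thus not lower there, although a count over the whole gene need not show a disrupted part, and the library is named by its label throughout.

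The 10 genes spanned a wide range of levels. *Shc1*, which encodes the main SHC adaptor of most tissues, was the highest at a mean of 69.5 FPKM over the 4 libraries, above 92.1% of genes. It was followed by *Kidins220* at 47.2 FPKM, *Grb2* at 42.2 and *Sh2b1* at 19.8, and none of these 4 overlapped the next in the order over the 4 libraries. *Frs3* at 10.5 FPKM and *Frs2* at 9.85 overlapped each other, as did *Gab1* at 7.89 and *Shc3* at 6.93, and *Shc3* and *Cblb* at 5.27. *Cbl* was the lowest at 2.85 FPKM, above 29.7% of genes, and its highest value lay below the lowest of *Cblb*. Within families, *Cblb* held between 59.2% and 73.5% of the summed FPKM of *Cbl*, *Cblb* and *Cblc*. *Shc1* held between 57.2% and 60.9% of that of the 4 Shc genes, and *Gab1* between 21.0% and 27.4% of that of the 3 Gab genes, of which *Gab2* was the highest.

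**Figure D1:**
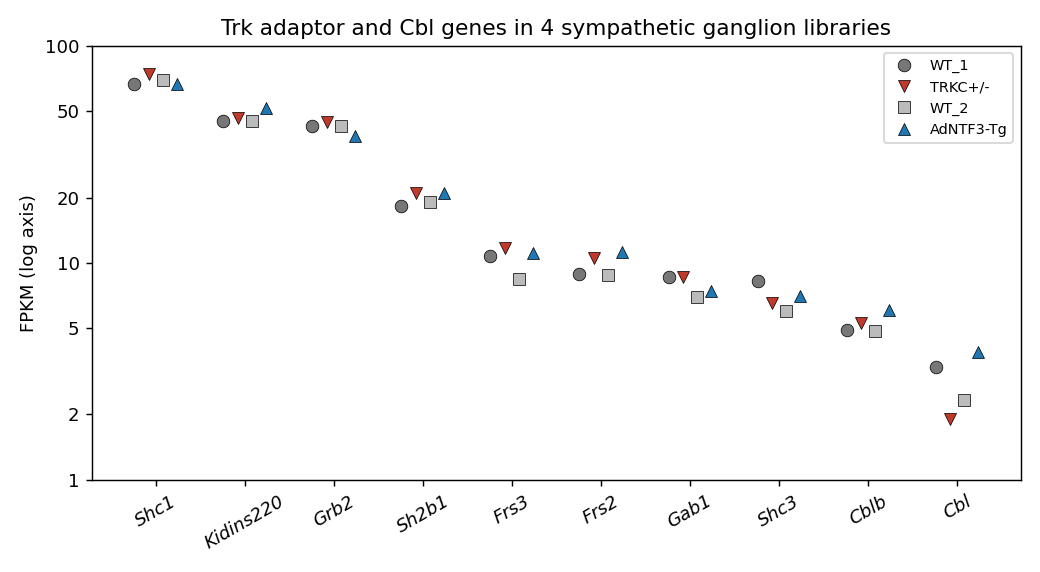
FPKM (log axis) of the 10 genes in each library, 1 point per library, in order of mean level. *Shc1* lies between 66.7 and 74.5 FPKM, and *Cbl*, the lowest, between 1.90 and 3.87 with the widest spread.

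A difference between libraries is given as log2 of the ratio of FPKM after adding 0.1 to each, against the mean of the log values of WT_1 and WT_2 unless a single WT library is named, and the cutoff was the study's absolute log2 fold change of 0.5. In the library labelled TRKC+/-, 1 of the 10 genes, *Cbl*, was past it, where 8.62% of all 15275 genes were. In AdNTF3-Tg 0 of the 10 were, where 10.9% of all genes were. Between the WT libraries, 0 of the 10 and 13.4% of all genes differed by as much. The test was edgeR's quasi-likelihood test on the expected counts, with the spread taken from the 2 WT libraries alone, so that each single mutant library is assumed to vary as these do. None of the 10 genes passed an adjusted p of 0.05 in either comparison. Of 14156 genes tested, edgeR called 1 (0.00706%) in the library labelled TRKC+/-, the brown fat gene *Ucp1* (named after its value was seen), and 0 (0%) in AdNTF3-Tg, with 273 and 832 genes at an unadjusted p under 0.05 (1.93% and 5.88%). Counts from the other tools are given with the alternatives. Counting intervals, given below, are exact Clopper-Pearson 95% intervals of the ratio of reads per library total between 2 libraries. They cover counting error only and compare libraries, not genotypes.

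*Cbl* (Entrez 12402, chr9:43957345-44042129, minus strand) encodes c-CBL, the ligase and adaptor for which the study singled out the opposite direction in the mutants. *Cbl* was picked from these libraries, so its counts and its test are not independent evidence of its direction. *Cbl* had 3.29 FPKM (144 reads) in WT_1, 2.34 (104 reads) in WT_2, 1.90 (85 reads) in the library labelled TRKC+/- and 3.87 (171 reads) in AdNTF3-Tg. The mutant libraries lay on either side of both WT libraries, whose mean was 2.82 ± 0.672 FPKM (SD, n = 2). Against the WT mean the log2 fold change was −0.52 in the library labelled TRKC+/- and 0.47 in AdNTF3-Tg, under the cutoff in the latter, while the WT libraries differed from each other by 0.47 (counting interval 0.13 to 0.88).

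The *Cbl* differences from the WT libraries taken singly were of unequal size, and which of them sets a mutant against its own control is not in the labels. The library labelled TRKC+/- differed from WT_1 by −0.76 (counting interval −1.20 to −0.40) and from WT_2 by −0.29 (−0.73 to 0.13). AdNTF3-Tg differed from WT_1 by 0.23 (−0.10 to 0.55) and from WT_2 by 0.70 (0.36 to 1.09). Each mutant library was thus apart from the WT library farther from it, and not detectably from the nearer, at this depth. If WT_1 is the control of TRKC+/- mice and WT_2 that of AdNTF3-Tg mice, the differences are −0.76 and 0.70, both past the cutoff, and with the other pairing they are −0.29 and 0.23, neither past it. The direction was opposite in the mutants in either case. The mutant libraries differed directly by 0.99 (0.64 to 1.42), with AdNTF3-Tg the higher. Against a single WT library, *Cbl* was the only one of the 10 genes past the cutoff in the library labelled TRKC+/- over WT_1 and in AdNTF3-Tg over WT_2, where 10.7% and 13.3% of all genes were, and 0 were in the other pairs, where 12.7% and 13.9% were. In edgeR's test the adjusted p of *Cbl* was 0.999 in the library labelled TRKC+/- and 0.817 in AdNTF3-Tg. The largest FPKM of *Cbl* was 2.04 times its smallest, a ratio reached by 3.65% of the 12752 genes whose mean was 1 FPKM or more. Counting error widens such a ratio for genes of few reads, and the share among genes of like depth was not computed. *Cbl* had also been picked for differing between these libraries. The sum of 4 adipocyte markers was, like *Cbl*, lowest in the library labelled TRKC+/-, mostly through *Ucp1*, which had 47.3 FPKM in WT_1, 7.80 in the library labelled TRKC+/-, 48.1 in WT_2 and 37.8 in AdNTF3-Tg. Without *Ucp1* the other 3 summed to 74.5, 57.3, 59.5 and 58.4 FPKM in that order, and *Adipoq* was lowest in AdNTF3-Tg. None of the 7 marker sums was highest in AdNTF3-Tg. The part of these cells in the result was not tested.

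*Cblb* (Entrez 208650, chr16:52031662-52208160, plus strand) encodes the paralog CBL-B, known as a brake on receptor signaling in immune cells. It had 4.88 FPKM (266 reads) in WT_1, 4.87 (270 reads) in WT_2, 5.28 (295 reads) in the library labelled TRKC+/- and 6.04 (333 reads) in AdNTF3-Tg. The WT values were nearly equal and both mutant libraries lay above them, so that *Cblb* did not share the order of *Cbl*. AdNTF3-Tg differed from WT_1 by 0.30 (counting interval 0.06 to 0.54) and from WT_2 by 0.30 (0.07 to 0.55), and the edgeR adjusted p was 0.817. The differences of the library labelled TRKC+/- had intervals that include 0. The third family gene, *Cblc*, was not listed in the library labelled TRKC+/- and had at most 0.14 FPKM in the others.

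**Figure D2:**
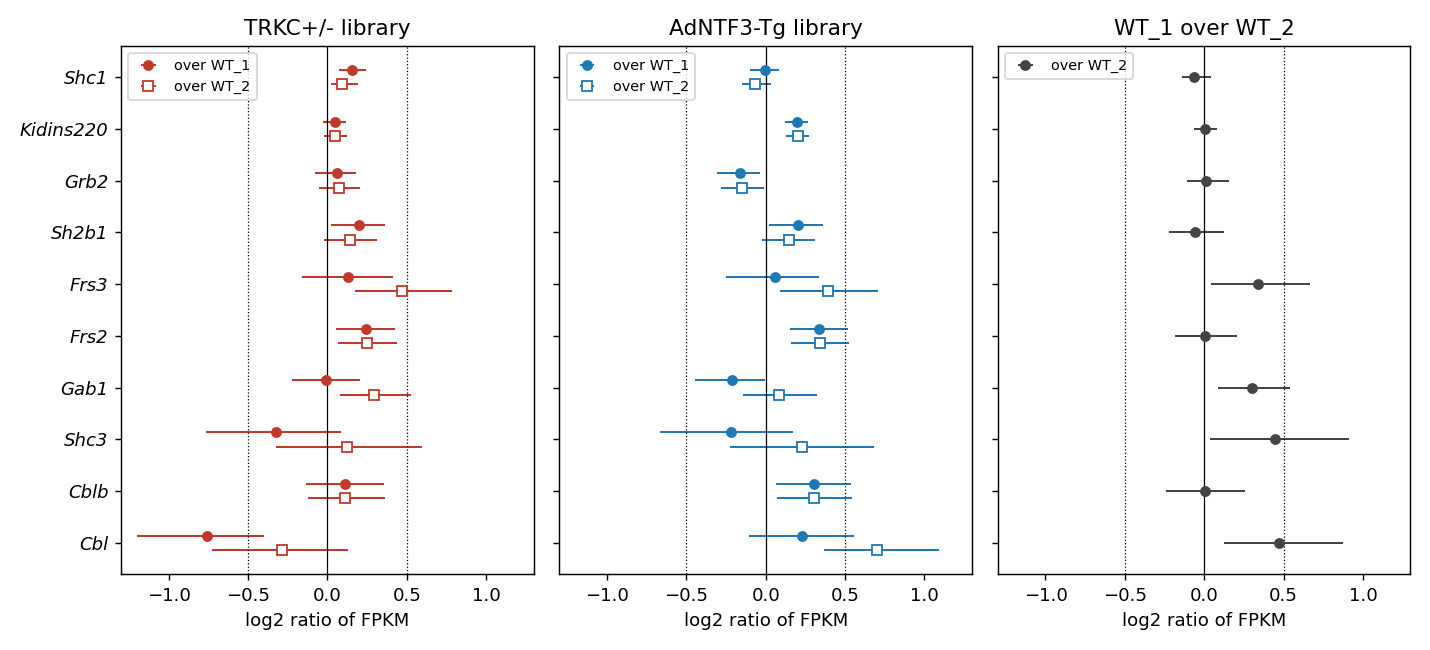
Log2 ratio of FPKM of the library labelled TRKC+/- (left) and AdNTF3-Tg (middle) over WT_1 (filled circles) and WT_2 (open squares), and of WT_1 over WT_2 (right). Bars are 95% counting intervals, and dotted lines mark the cutoff of 0.5. *Cbl* is the only gene with a point past the cutoff, and the points of *Frs2* and *Cblb* over the 2 WT libraries nearly coincide.

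The SHC adaptors link the receptor to GRB2. *Shc1* (Entrez 20416, chr3:89222365-89233937, plus strand) had 66.9 FPKM in WT_1, 69.8 in WT_2, 74.5 in the library labelled TRKC+/- and 66.7 in AdNTF3-Tg, from between 1989 and 2279 reads. The library labelled TRKC+/- was the highest, by 0.15 over WT_1 (counting interval 0.07 to 0.25) and by 0.09 over WT_2 (0.02 to 0.20), and the edgeR adjusted p was 0.999. Its listed length, which varies where several transcripts are counted, was between 3463 and 3494 bases. *Shc3* (Entrez 20418, chr13:51526410-51662453, minus strand), the neuronal SHC, had 8.20 FPKM (106 reads) in WT_1 and 5.98 (78 reads) in WT_2. The mutant libraries lay between these, at 6.52 FPKM (86 reads) in the library labelled TRKC+/- and 7.02 (91 reads) in AdNTF3-Tg. The difference between the WT libraries was 0.45 (0.04 to 0.91), and none of the 4 differences of a mutant from a WT library had an interval that excludes 0.

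The FRS2 family proteins are anchored in the membrane and give a sustained link from Trk receptors to ERK. *Frs2* (Entrez 327826, chr10:116507185-116585530, minus strand) had 8.86 FPKM (435 reads) in WT_1 and 8.83 (441 reads) in WT_2, against 10.5 (528 reads) in the library labelled TRKC+/- and 11.2 (557 reads) in AdNTF3-Tg. Both mutant libraries were above both WT libraries, which were nearly equal. The difference of AdNTF3-Tg was 0.34 from WT_1 (counting interval 0.15 to 0.52) and 0.34 from WT_2 (0.16 to 0.53). For the library labelled TRKC+/- it was 0.24 (0.06 to 0.43) and 0.25 (0.07 to 0.44). All 4 intervals of *Frs2* excluded 0. Of all genes, 2.34% had intervals above 0 against both WT libraries in the library labelled TRKC+/- and 4.84% in AdNTF3-Tg. The share with both was not computed. The direction of *Frs2* was the same in both mutants, but these were set against the same WT libraries and are not independent. In edgeR's quasi-likelihood test its log2 fold change was 0.35 ± 0.12 (SE) in AdNTF3-Tg, with an unadjusted p of 0.0194 and an adjusted p of 0.817, and 0.25 ± 0.12 in the library labelled TRKC+/-, with an adjusted p of 0.999.

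*Frs3* (Entrez 107971, chr17:47825979-47841235, plus strand), the paralog of *Frs2*, had 10.7 FPKM (194 reads) in WT_1, 8.46 (155 reads) in WT_2, 11.7 (217 reads) in the library labelled TRKC+/- and 11.1 (203 reads) in AdNTF3-Tg. Both mutant libraries were the higher, but only WT_2 stood apart. The differences from WT_2 were 0.47 (counting interval 0.17 to 0.78) and 0.39 (0.09 to 0.71), those from WT_1 had intervals that include 0, and the WT libraries themselves differed by 0.34 (0.04 to 0.67).

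*Grb2* (Entrez 14784, chr11:115505359-115569911, minus strand) encodes the small adaptor between phosphotyrosines and SOS. It had 42.9 FPKM (960 reads) in WT_1, 42.6 (964 reads) in WT_2, 44.7 (1022 reads) in the library labelled TRKC+/- and 38.4 (866 reads) in AdNTF3-Tg. AdNTF3-Tg was the lowest, by −0.16 from WT_1 (counting interval −0.31 to −0.04) and by −0.15 from WT_2 (−0.28 to −0.01), and the edgeR adjusted p was 0.819. *Gab1* (Entrez 14388, chr8:83288333-83404378, minus strand), which encodes the docking protein that brings PI3K and the phosphatase SHP2 to the complex, had 8.61 FPKM (361 reads) in WT_1, 6.97 (297 reads) in WT_2, 8.57 (368 reads) in the library labelled TRKC+/- and 7.40 (314 reads) in AdNTF3-Tg. Here the mutant libraries lay between the WT libraries, which differed from each other by 0.30 (0.09 to 0.54). The library labelled TRKC+/- was 0.29 above WT_2 (0.08 to 0.53), and AdNTF3-Tg differed from WT_1 by −0.22 (−0.45 to −0.0022).

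*Sh2b1* (Entrez 20399, chr7:133610508-133618644, minus strand) encodes SH2-B, an adaptor that binds the activated receptor and is known to promote neurite growth in sympathetic neurons. It had 18.2 FPKM (529 reads) in WT_1, 19.0 (559 reads) in WT_2, 20.9 (621 reads) in the library labelled TRKC+/- and 21.0 (614 reads) in AdNTF3-Tg. Both mutant libraries were above both WT libraries, with counting intervals that exclude 0 over WT_1 and include 0 over WT_2. *Kidins220* (Entrez 77480, chr12:25659797-25746142, plus strand) encodes the membrane scaffold ARMS, which holds Trk receptors and prolongs ERK signaling. It had 45.2 FPKM (2885 reads) in WT_1, 45.1 (2930 reads) in WT_2, 46.7 (3055 reads) in the library labelled TRKC+/- and 51.9 (3354 reads) in AdNTF3-Tg. AdNTF3-Tg stood above the rest, by 0.20 over WT_1 (0.12 to 0.27), by 0.20 over WT_2 (0.13 to 0.27) and by 0.15 over the library labelled TRKC+/- (0.08 to 0.22). In edgeR's test its unadjusted p was 0.0231 and its adjusted p 0.817. *Frs2* and *Kidins220* were the 2 of the 10 genes at an unadjusted p under 0.05 in AdNTF3-Tg, and in the library labelled TRKC+/- there were 0. In AdNTF3-Tg the count was 0 with DESeq2, with p of 0.17 for *Frs2* and 0.14 for *Kidins220*, and 1 with limma on log2 FPKM, with p of 0.0515 and 0.0478.

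Counted over the 10 genes, the library labelled TRKC+/- lay above both WT libraries for 7 and below both for *Cbl* alone, where 31.9% and 30.8% of all genes did. AdNTF3-Tg lay above both for 6 and below both for *Shc1* and *Grb2*, where 33.7% and 34.0% of all genes did. With counting error taken into account, AdNTF3-Tg had intervals above 0 against both WT libraries for 3 (*Cblb*, *Frs2* and *Kidins220*), where 4.84% of all genes had, and below 0 against both for *Grb2* alone, where 5.31% had. The library labelled TRKC+/- had intervals above 0 against both for *Shc1* and *Frs2* (2.34% of all genes) and below 0 against both for 0 (2.12%). The WT libraries differed with an interval that excludes 0 for 4 of the 10, *Cbl*, *Shc3*, *Frs3* and *Gab1*, each with WT_1 the higher, where 11.4% of all genes did so in that direction. Muscle, glial and fibroblast marker sums were highest in WT_1 and lowest in WT_2, at 227 and 165 FPKM for the fibroblast list. Of the 4 genes, only *Shc3* and *Gab1* were highest and lowest in these same libraries. *Cbl* was highest in AdNTF3-Tg and lowest in the library labelled TRKC+/-, where *Frs3* was highest. The part of these cells was not tested. An interval for a gene of more reads is narrower, so that such counts depend on depth. The median log2 fold change of the 10 genes was 0.12 in the library labelled TRKC+/- and 0.19 in AdNTF3-Tg, beside 0.00 and 0.00 over all genes listed in the 4 libraries.

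*Frs2* and *Kidins220* are shown by their upstream sequence because they had the lowest edgeR p of the 10 genes in AdNTF3-Tg, a choice made after their values were seen. The bases are those directly before the annotated gene in RefSeq on GRCm38.p6, with capitals marking the GC box GGGCGG or its reverse complement CCGCCC, a motif bound by SP-family factors.
Frs2: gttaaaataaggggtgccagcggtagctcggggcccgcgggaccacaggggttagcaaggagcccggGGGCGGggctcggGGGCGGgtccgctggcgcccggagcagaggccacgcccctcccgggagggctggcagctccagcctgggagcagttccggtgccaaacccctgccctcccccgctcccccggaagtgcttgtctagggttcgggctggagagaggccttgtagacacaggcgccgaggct
Kidins220: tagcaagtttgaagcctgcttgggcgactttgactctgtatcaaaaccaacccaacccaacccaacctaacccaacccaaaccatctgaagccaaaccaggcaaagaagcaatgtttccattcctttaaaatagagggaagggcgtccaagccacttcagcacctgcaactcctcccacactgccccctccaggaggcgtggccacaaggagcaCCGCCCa

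The *Frs2* stretch is chr10:117148475-117148724 (minus strand) and holds 2 GC boxes, and that of *Kidins220* is chr12:24974682-24974902 (plus strand) and holds 1. Of 32851 RefSeq windows of 250 bases before a start, 32.7% hold the motif on either strand. The GC content of the 250-base window was 71.6% for *Frs2* and 54.0% for *Kidins220*, beside a median of 52.4% over all windows. The windows of the *Cbl* start were 71.6% and of *Cblb* 58.8% GC, with 3 and 2 GC boxes, and lie wholly or mostly within the annotated span of the gene, so they are not printed. GC boxes also lay in the window of *Frs3* (3), in both of *Gab1* (2 in each) and in 1 of the windows of *Shc1* (1). Those of *Grb2* and *Sh2b1* held 0. The motif was thus not particular to *Frs2* and *Kidins220*, and these matches describe the letters only.

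The profile of *Cbl* over the 4 libraries was compared with that of the 12751 other genes whose mean was 1 FPKM or more, as the Euclidean distance between log2(FPKM + 0.1) values after each gene's mean was subtracted. The 5 nearest genes were *Cdh6*, which encodes a cadherin (distance 0.14), *Dennd11* (0.18), *Tmem178b* (0.19), *Trip11*, which encodes a golgin (0.19), and *Adap2* (0.19). *Cdh6* had 6.29 FPKM in WT_1, 4.01 in the library labelled TRKC+/-, 4.27 in WT_2 and 7.39 in AdNTF3-Tg, the same order of libraries as *Cbl*. *Trip11* is, like *Cbl*, a gene that the study picked from these libraries for its opposite directions. *Adap2* had between 13 and 22 reads per library. None of the other 9 adaptor and Cbl genes was near: the closest, *Shc3*, ranked 927 by distance (0.63), followed by *Kidins220* (2187) and *Cblb* (2194), and *Grb2* was the farthest (9909). The values were not scaled to a common spread. A gene that varies little therefore lies far from *Cbl* whatever its order of libraries, and these ranks partly restate the smaller spread of the 9 genes.

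**Figure D3:**
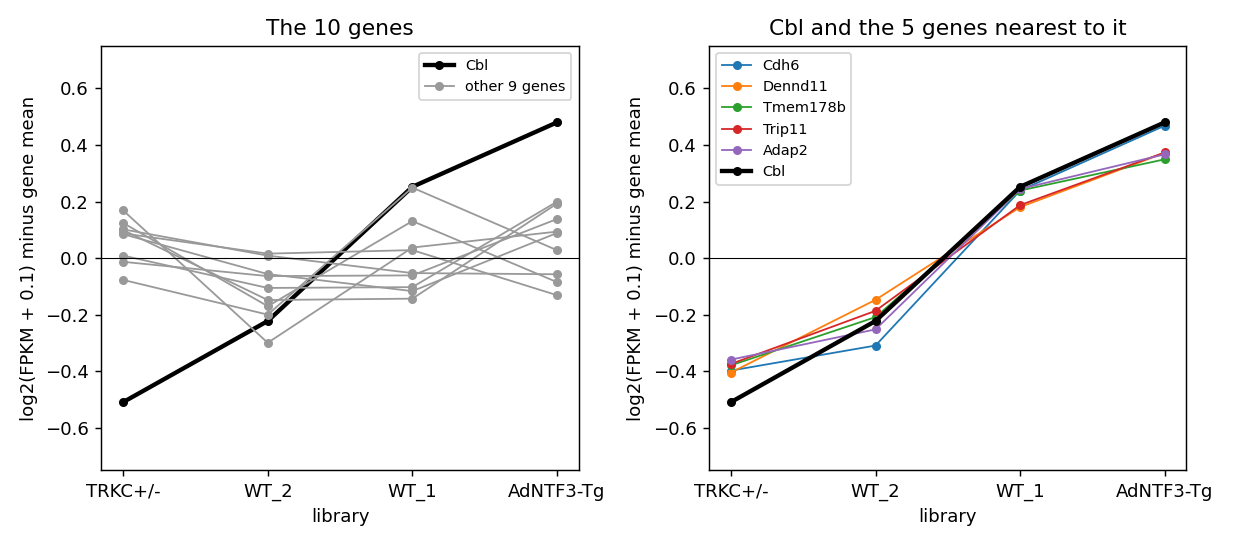
Log2(FPKM + 0.1) minus the gene's mean over the 4 libraries, which are placed in the order of *Cbl*, for the 10 genes (left) and for *Cbl* with the 5 genes nearest to it (right). Lines join the points of a gene and do not stand for a series in time or dose. *Cbl* (black) spans the widest range on the left, and the other 9 genes do not follow it.

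The receptors that these adaptors serve varied little. *Ngfr*, which encodes the neurotrophin co-receptor p75, had between 316 and 360 FPKM, *Ntrk2* between 31.7 and 33.0, and *Sort1* between 14.3 and 17.0. At its mean of 69.5 FPKM, *Shc1* lay above *Ntrk2* and *Ntrk3* and below *Ngfr*. None of the 5 receptor genes was past the cutoff in either mutant library. Their log2 fold changes were between −0.09 and 0.20 in the library labelled TRKC+/- and between −0.10 and 0.09 in AdNTF3-Tg, and edgeR called 0 of the 5.

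Among 17 further receptor adaptors and enzymes, 16 were listed in all 4 libraries, 0 were past the cutoff in the library labelled TRKC+/- and 2 were higher in AdNTF3-Tg (4.59% of all genes). These were *Sh2b2*, a paralog of *Sh2b1* also known as APS, and *Gab3*, named after its values were seen since it is under 1 FPKM. *Sh2b2* had 1.85 FPKM (45 reads) in WT_1, 1.29 (32 reads) in the library labelled TRKC+/-, 1.22 (30 reads) in WT_2 and 2.24 (55 reads) in AdNTF3-Tg, a log2 fold change of 0.54 in the latter, while the WT libraries differed by 0.56, and it was past the cutoff over WT_2 (0.83) and not over WT_1 (0.26). *Grb14*, an inhibitor of insulin receptor signaling, had a log2 fold change of −0.45 in AdNTF3-Tg, with −0.02 in the library labelled TRKC+/-, and *Irs2*, which encodes an insulin receptor substrate, 0.29 and 0.28. The WT libraries differed by 0.34 in *Grb14*, whose value in AdNTF3-Tg was −0.62 over WT_1 and −0.28 over WT_2, and in the library labelled TRKC+/- −0.18 and 0.15. The medians of the list were 0.04 and 0.01.

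Downstream of the adaptors, 0 of 20 genes of the Ras-ERK pathway and 0 of 11 of the PI3K-AKT pathway were past the cutoff in either mutant library, and edgeR called none. Of the first list, *Hras* had a log2 fold change of −0.29 in AdNTF3-Tg, while the library labelled TRKC+/- had −0.02. In the same order *Rap1a*, which encodes a GTPase of sustained ERK signaling, had −0.09 and −0.27, both smaller in size than the difference of WT_1 from WT_2 (−0.41), and its value in AdNTF3-Tg was 0.11 over WT_1 and −0.30 over WT_2. Over a single WT library the small values of *Hras* and *Stam* in the library labelled TRKC+/- and of *Pik3r1* in AdNTF3-Tg also took either sign. For the PI3K subunit genes *Pik3cb* and *Pik3r1* the values were 0.05 and −0.26, and 0.05 and 0.22. In that order the medians were 0.02 and −0.02 for Ras-ERK, and 0.06 and −0.02 for PI3K-AKT.

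Of 25 genes of Cbl partners, receptor ubiquitination and sorting, 24 were listed in all 4 libraries, and 0 were past the cutoff in either mutant. *Cbll1*, which encodes the CBL-like ligase Hakai, had 4.13 FPKM in WT_1, 4.12 in the library labelled TRKC+/-, 4.15 in WT_2 and 5.39 in AdNTF3-Tg, a log2 fold change of 0.37 in the latter and −0.01 in the former. *Traf6*, a ubiquitin ligase, had 0.30 and 0.27, and *Stam*, of the endosomal sorting machinery, 0.23 and −0.04. The medians of the list were 0.04 and 0.00.

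**Figure D4:**
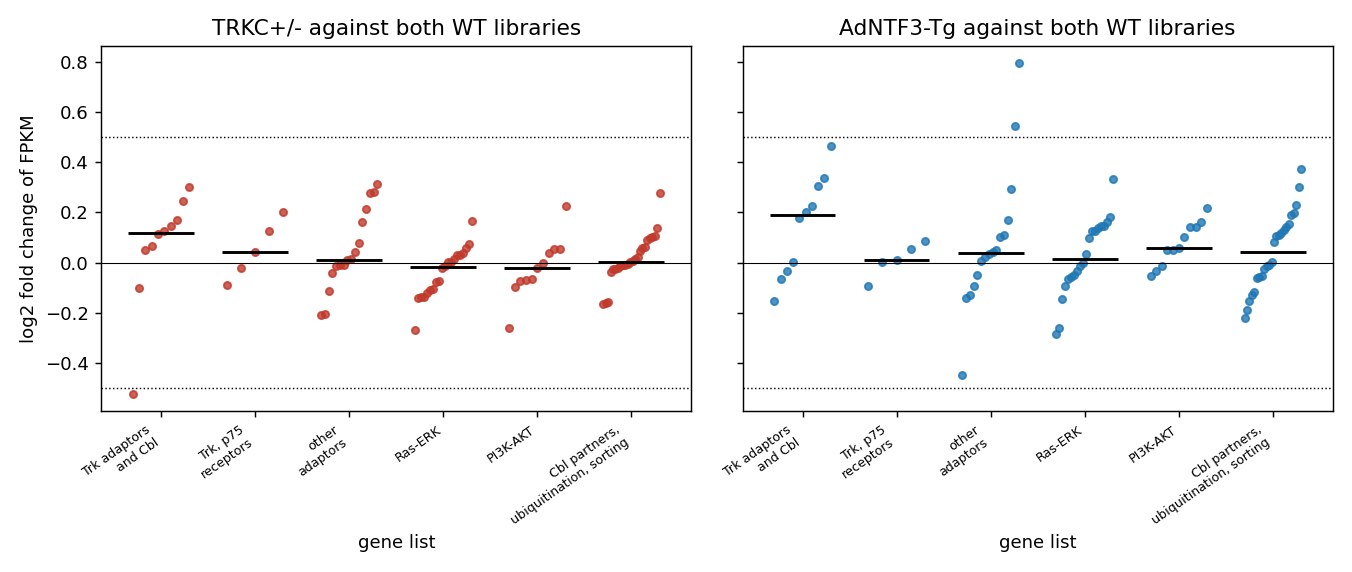
Log2 fold change of FPKM of each gene of 6 lists against both WT libraries, for the library labelled TRKC+/- (left) and AdNTF3-Tg (right), sorted within a list. Horizontal bars are medians and dotted lines the cutoff of 0.5. *Cbl* on the left and *Sh2b2* and *Gab3* on the right are the points past it.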

How the data were processed

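RNA-seq was measured in 4 libraries of SG mRNA enriched with oligo(dT) and read from a single end. The study's methods name SOAPnuke and HISAT2 with the mm9 assembly, while the submitters' processing notes name RSEM and mm10. The files carry no coordinates, so gene positions are those of GENCODE on NCBIM37. For each Entrez gene the authors deposited an expected count (estimated reads, not normalized), an FPKM value and a length in bases as another column. Between 92.6% and 93.7% of expected counts per library were whole. Not every gene was listed for every library.

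Symbols were taken from RefSeq on GRCm38.p6, used for names, which matched 17619 identifiers (99.7%). Groups were the labelled genotypes, and WT_1 and WT_2 formed 1 group. The members and lists were chosen with earlier results of these data known, and *Cbl* had been picked from these libraries by the study. Genes named are the 10 members, the 5 receptors, the 3 genes of each other pathway list with the largest change among those of at least 1 FPKM, and the 5 nearest to *Cbl*. Some of the pathway genes are not reported here. Fold changes used a pseudocount of 0.1 FPKM over genes listed in all 4 libraries. Expected counts rounded to whole numbers were tested in a fit of all 4 libraries with edgeR 4.0.16 (TMM, filterByExpr, quasi-likelihood, Benjamini-Hochberg) in R 4.3.3, with 1 residual degree of freedom. Each WT library was a pool, and the study describes WT controls for each mutant line, so the spread behind the p-values is that between 2 WT pools and can hold a difference between the lines. Alternatives used DESeq2 1.42.0 and limma 3.58.1. The test was also run on simulated data, where it called most of the changed genes and some unchanged ones. There all genes shared a common dispersion and the WT libraries had equal means. It therefore did not check the test for WT pools that differ as these do. Counting intervals cover counting error only. The SE given for *Frs2* is not an output of edgeR. It is the absolute log2 fold change divided by the square root of the test's F statistic, and no mutant was repeated.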

Additional observations from a re-analysis of the deposited data

How the results depend on the processing

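Each mutant had 1 library, so the spread was known from the 2 WT libraries alone. Genes past the cutoff numbered 1316 in the library labelled TRKC+/- and 1669 in AdNTF3-Tg. With a pseudocount of 1 they were 271 and 395, for genes averaging 1 FPKM or more 445 and 681, with genes not listed taken as 0 2613 and 2996, and with a cutoff of 1 287 and 346. With a single WT library as control they were between 1632 and 1933 in the former and between 2033 and 2116 in the latter. Of the 10 genes, *Cbl* was past the cutoff in the library labelled TRKC+/-, but 0 were with a pseudocount of 1, with a cutoff of 1 or without WT_1, and *Cbl* was past it in AdNTF3-Tg without WT_1, so that leaving out a WT library gave between 0 and 1 in each mutant. With TMM or DESeq2 size factors on the expected counts, and with centring on the median, the counts were again 1 and 0. EdgeR called 1 gene in the library labelled TRKC+/-, 2 with RLE scaling, 0 without a filter, DESeq2 2 and limma on log2 FPKM 0 (298, 230, 21 and 410 at an unadjusted p under 0.05). In AdNTF3-Tg each of these called 0 (878, 599, 64 and 775). None of the 10 genes passed in 80 recomputed tests, with adjusted p between 0.77 and 1.00. Without a WT library the mutants cannot be tested, since no residual degree of freedom is left. Of 40 fold changes of the 10 genes recomputed without a WT library, 4 changed sign, and of 100 under other pseudocounts, scalings or centring 1 did, all in *Shc3* and *Gab1*, and the cause was not tested. The filters on genes cannot change a value of the 10. No paired analysis was possible because the labels tie neither WT library to a mutant, and 1 library against 1 leaves no residual degree of freedom. The fold changes against each WT library are in the report.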
